A study of Mesocricetus auratus with 21 samples.

Results

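The 200 genes described here are those that stood highest in the adult wild-type testis of the golden hamster over every younger wild-type testis, chosen from the 22285 genes of the testis count table. For each gene the lowest level in the adult wild-type libraries was divided by the highest level in the 9 other wild-type libraries, after adding 1 CPM (the count scaled by the total of its library) to both, and the log2 of that ratio, L, ranked the genes. Genes had to reach at least 10 CPM in every adult wild-type library, and 2731 genes had L above 0. Odf1, Tex101, Slc25a31, Mael and Piwil1 were left out. L ran from 11.52 to 5.92 over the members, with a median of 7.11. The last member, ENSMAUG00000015891, and the first gene past the limit, ENSMAUG00000016861, lay next to each other, with L of 5.917 and 5.915. The wild-type levels therefore chose the members, and they are given below as a description without a test.

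Spermatogenesis runs from mitotic spermatogonia through meiotic spermatocytes to haploid round spermatids, which are then remodelled into sperm. In a young male the first wave of germ cells reaches these stages one after the other, so that genes of late stages are absent from the whole testis until the cells that use them have formed. Spermatids transcribe many genes that hardly any other cell uses, among them genes for the flagellum, the acrosome and the packaging of sperm chromatin. No member had a gene symbol in the sources used here, so members are given by their Ensembl identifiers, and no function was assigned to any of them.

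The study asked what loss of Mov10l1, an RNA helicase needed to make PIWI-interacting RNAs, does to the hamster testis. RNA of whole testis, depleted of ribosomal RNA, was sequenced from Mov10l1+/+ (wild-type) and Mov10l1-/- (knockout) males at 0, 9, 13 and 21 days post partum (d.p.p.) and in adults, giving 21 libraries. There were 3 wild-type libraries at 9 d.p.p. and 2 of each genotype otherwise. The knockout carried a deletion of 1 exon made by CRISPR/Cas9, and every knockout descended from the allele of 1 founder female, outcrossed before heterozygotes were mated. The adults were 65 and 23 weeks of age in the wild type and 63 and 53 weeks in the knockout. Libraries of 0 and 9 d.p.p. were read as single ends of 75 nt and the others as paired ends of 150 nt, so that age and read type cannot be told apart between these groups. The labels gave both knockout libraries of 9 d.p.p. the same animal code.

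Counts per library summed to between 3550217 (wild type, 13 d.p.p., replicate 2) and 77527451 (wild type, 9 d.p.p., replicate 1). Mov10l1 itself (ENSMAUG00000003667) was lower in each knockout library than in each wild-type library of its age. It stood at 39.9 and 46.2 CPM in wild-type adults and at 1.64 and 1.94 CPM in knockout adults, a log2 fold change of -4.79 ± 0.168 (SE; edgeR quasi-likelihood test, adjusted p = 4.56e-07, n = 2 and 2). One library stood apart for the members. In knockout replicate 2 of 13 d.p.p. only 1 of the 200 members had no count, against 75 members without a count in replicate 1, and its members are described with the other ages below.

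In adult wild-type testis the members held 8.52% and 9.51% of all counts in replicates 1 and 2, a mean of 9.02% ± 0.702 (SD, n = 2), although they are 0.897% of the genes in the table. The median member stood at 251 CPM in replicate 1 and 266 CPM in replicate 2. Averaged over both libraries, members ran from 74.9 to 5025 CPM with a median of 257 CPM, and 7 members lay under 100 CPM, 179 between 100 and 1000 CPM, and 14 at 1000 CPM or more. Abundance was concentrated in few members, since the 10 highest gave 33.0% of the summed level and the 50 highest gave 63.7%. Among the 10 most abundant genes of the adult wild-type testis 3 were members, and among the 100 most abundant 21 were. CPM takes no account of gene length, so these orders are of counts and not of transcripts.

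The adult wild-type replicates gave the members close to the same levels, although the animals differed in age. All 200 members lay within 2-fold between the replicates. The log2 difference of replicate 2 over replicate 1 had a median of 0.17 and ran from -0.38 to 0.88, and 153 members were higher in replicate 2. Over the 7640 genes with at least 10 CPM in both libraries the median was 0.03, and 99.6% lay within 2-fold.

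The highest-ranked members were ENSMAUG00000020669 and ENSMAUG00000016406. ENSMAUG00000020669 stood at 4202 and 4700 CPM in wild-type adults, against 0.088 and 0.073 CPM in knockout adults. Its highest level in any younger wild-type library was 0.431 CPM. ENSMAUG00000016406 stood at 3714 and 3945 CPM in wild-type adults, against 0.147 and 0.049 CPM in knockout adults and at most 0.282 CPM in younger wild-type testis. Both groups of adult libraries were far apart for these genes, and outside adult wild type their highest levels, 2.41 and 2.15 CPM, were in knockout replicate 2 of 13 d.p.p.

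**Figure D1:**
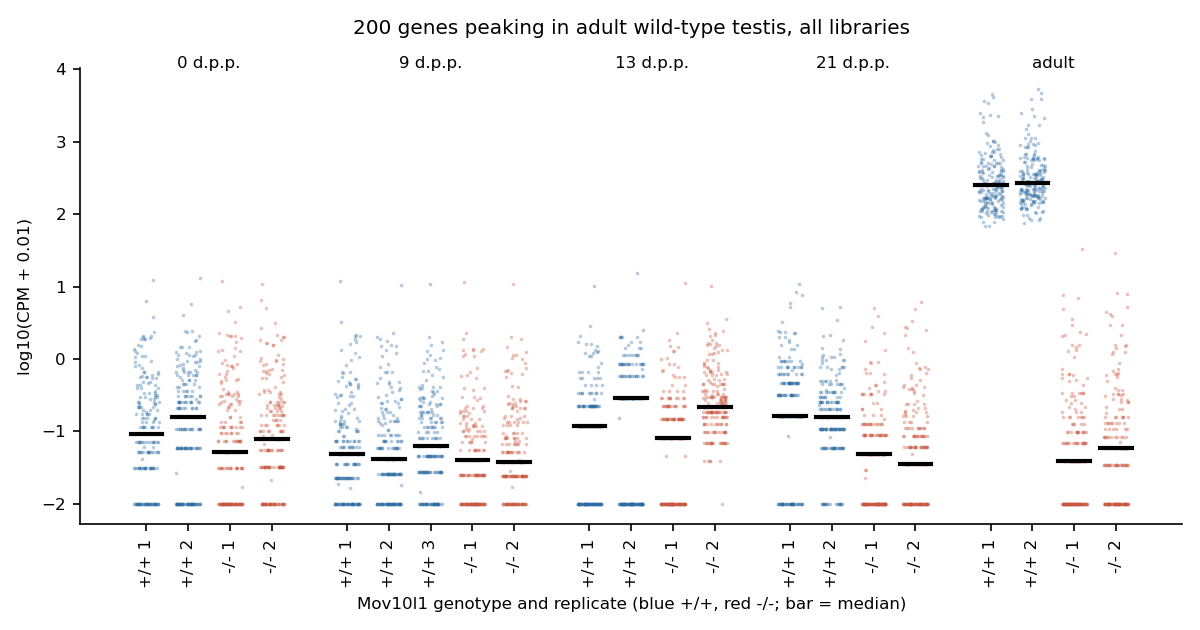
Level of each of the 200 members as log10(CPM + 0.01) in all 21 libraries, grouped by age, with Mov10l1+/+ in blue, Mov10l1-/- in red and a black bar at the median; points at the bottom are genes without a count. Only the adult wild-type libraries, which chose the members, lie above the rest, with medians of 251 and 266 CPM against 0.0294 and 0.0489 CPM in adult knockouts.

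Before adulthood the members were near the limit of detection in wild-type testis. Their summed level was 75.9 and 86.2 CPM at 0 d.p.p., 47.9, 42.7 and 43.6 CPM at 9 d.p.p., 54.8 and 90.3 CPM at 13 d.p.p., and 119 and 67.2 CPM at 21 d.p.p. At 21 d.p.p., the age nearest to adults, the whole set was thus still at 0.131% and 0.0745% of its summed adult level. In the 9 younger wild-type libraries 57 members had at most 3 counts in each, no member was without a count in all of them, and 160 members stayed under 1 CPM in each. The age of the highest younger level was 21 d.p.p. for 83 members, 13 d.p.p. for 69, 0 d.p.p. for 43 and 9 d.p.p. for 5. Wild-type libraries of 13 and 21 d.p.p. included the shallowest ones, in which 1 count is worth more CPM, and the part of depth in these counts was not tested. The 40 members that reached 1 CPM in some younger library included ENSMAUG00000000610, singled out after its values were seen, which had the highest level outside adults. It stood at 10.1 to 15.2 CPM in the wild-type libraries of 0, 9 and 13 d.p.p., at 8.40 and 5.23 CPM at 21 d.p.p., and at 1036 and 1278 CPM in wild-type adults. Its knockout levels were 10.2 to 11.9 CPM from 0 to 13 d.p.p., 5.06 and 6.04 CPM at 21 d.p.p., and 3.50 and 3.91 CPM in adults.

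Meiotic genes gave a different course over the same libraries. Genes already high in wild type at 21 d.p.p. could not rank as members, so the rule itself sets this contrast and it is only described. The 16 meiotic prophase genes of the marker list, such as Sycp1 and Sycp3 of the synaptonemal complex and Hormad1 of the chromosome axis, summed to 3303 and 1491 CPM in wild-type testis at 21 d.p.p. and to 1480 and 1813 CPM in wild-type adults. Of the 37 spermatid and sperm genes listed, 7 had an identifier in the sources used here, and none of them was a member. The other listed genes could not be looked for, so whether spermatid genes are among the members was not tested. The 7 were also detected at birth, with sums of 83.8 and 74.4 CPM in wild type at 0 d.p.p. In the wild type these 7 summed to 772 and 191 CPM at 21 d.p.p. and to 2702 and 2938 CPM in adults. Ybx2, an RNA-binding protein of spermatocytes and spermatids, was already at 496 and 114 CPM at 21 d.p.p. and reached 1689 and 1722 CPM in adults. Dnah3, a dynein heavy chain, stood at 1.98 and 1.60 CPM at 21 d.p.p. and at 211 and 286 CPM in adults, nearer to the course of the members. In CPM, the wild-type sum of the members at 21 d.p.p. was below both libraries of 0 d.p.p. in replicate 2 and above them in replicate 1, the shallower library. This order depended on the scaling. After TMM normalization of library sizes both 21 d.p.p. libraries, at 96.0 and 90.2 CPM, lay above those of 0 d.p.p., at 51.3 and 57.2 CPM. The 2 ages also differ in read type.

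**Figure D2:**
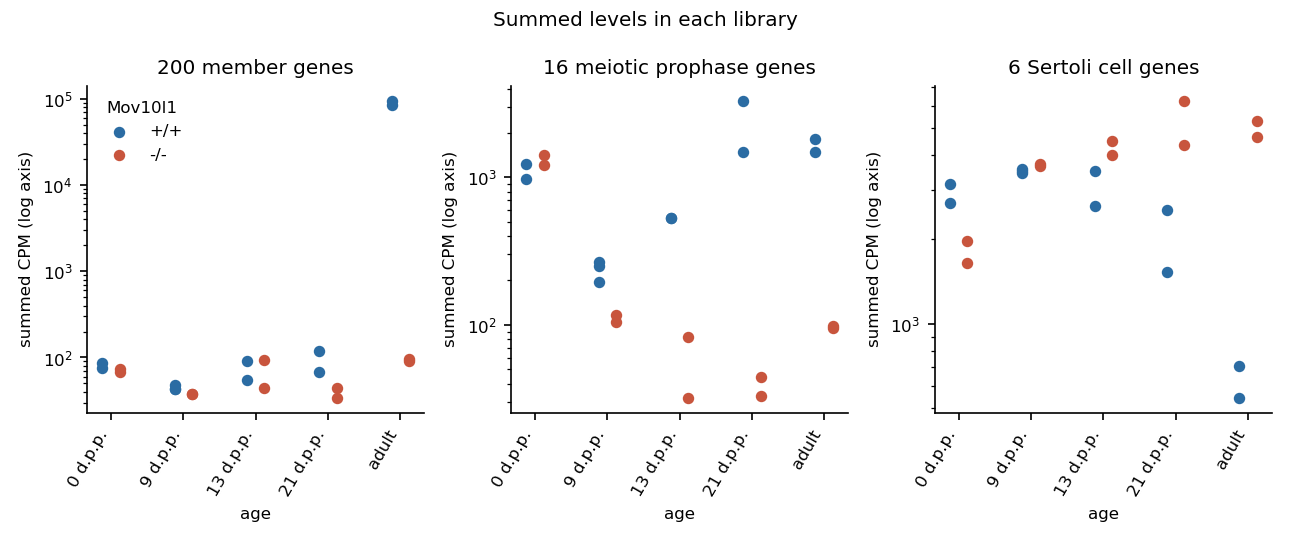
Summed CPM on a log axis in each library by age, for the 200 members, the 16 meiotic prophase genes and the 6 Sertoli cell genes, with Mov10l1+/+ in blue and Mov10l1-/- in red. The members stand at 85203 and 95130 CPM in wild-type adults and between 34.1 and 119 CPM in all other libraries, while the meiotic genes are already at 3303 and 1491 CPM in wild-type testis of 21 d.p.p. The rule that chose the members leaves out genes high at that age.

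In knockout adults all 200 members were lower than in each wild-type adult. Their summed level was 90.7 and 96.8 CPM, that is 0.00907% and 0.00968% of all counts, against 8.52% and 9.51% in wild-type adults. The median member was at 0.0294 and 0.0489 CPM. At most 3 counts were found in both knockout adults for 127 members, of which 44 had none, and the wild-type level of these 127 was at least 771-fold to 47690-fold higher, with a median bound of 2338-fold, taking 3 counts per library as the floor. The other 73 members had more than 3 counts in at least 1 knockout adult. Their wild-type mean was 27.2-fold to 68537-fold above the knockout mean, with a median of 1013-fold. The highest of these ratios, of ENSMAUG00000021536, rested on 0 and 6 counts in the knockout adults, so its size is poorly known. All 200 members passed the test as lower in the knockout, and 37.2% of the 15761 genes tested did so, with 37.1% higher. The wild-type adult libraries chose the members, so nothing is read from that count. In whole testis, fewer cells of a type and less RNA per cell cannot be told apart.

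Markers of other cells moved with this difference. The 6 identified Sertoli cell genes of 11 listed, such as Inha and Kitl, summed to 707 and 544 CPM in wild-type adults and to 4627 and 5306 CPM in knockout adults, and all 6 were higher in the knockout (edgeR, adjusted p below 0.01, as for the lists that follow). The 2 identified Leydig cell genes of 6, Cyp11a1 and Akr1b1, summed to 125 and 94.0 against 1019 and 1172 CPM, and both were higher. The 6 peritubular genes summed to 84.9 and 88.8 against 209 and 208 CPM, with 4 higher, and the 8 macrophage and vessel genes to 39.3 and 29.5 against 137 and 119 CPM, with 3 higher. Of the 13 spermatogonial genes 4 were higher and 3 lower. Their sum was 159 and 181 CPM in wild type and 198 and 205 CPM in knockout. Kit and Etv5 carried most of the knockout sum. Kit stood at 8.44 and 7.39 CPM in wild type and at 101 and 104 CPM in knockout. Etv5 stood at 10.5 and 8.22 against 41.3 and 47.1 CPM. Among the lower genes, Dazl stood at 56.1 and 81.7 against 8.52 and 8.72 CPM. The near-equal sums therefore do not show that the list as a whole was kept. All 7 spermatid genes and 15 of the 16 meiotic genes were lower, with sums of 15.0 and 16.1 CPM for spermatid genes and 98.1 and 95.5 CPM for meiotic genes in knockout adults. The part of the changed cell make-up in the members' levels was not tested. Symbols were at hand only for genes that the study had itself called as changed, so these lists are not independent evidence of a direction.

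A small number of members carried most of the remaining signal in knockout adults. In at least 1 of them 17 members reached 1 CPM, and these gave 84.0% and 82.8% of the summed level of the members. Their wild-type mean exceeded the knockout mean by 27.2-fold to 587-fold, with a median of 177-fold. Of these 17 members 12 had also reached 1 CPM in some younger wild-type library, and 5 had not. ENSMAUG00000015493 alone gave 36.1% and 29.99%, and without it the sums were 57.97 and 67.8 CPM.

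Whether the members changed between 21 d.p.p. and adulthood in the knockout was tested within the knockout, whose libraries had no part in choosing them. Of the 200 members 166 had too few counts in both groups to be tested, and 34 were tested. Among the 34, 10 rose and 1 fell, while of all 14549 genes tested 16.3% rose and 13.2% fell (edgeR quasi-likelihood test, adjusted p below 0.01). Over all 200 members, with the 166 untested ones counted in, that is 5.00% higher and 0.500% lower. The 16.3% and 13.2% are shares of tested genes only, so these shares are not set against them. The median log2 fold change of the tested members was 0.64, against -0.02 over all genes tested. A member could pass the filter through its level in adults alone, so the median and the count describe only the genes that passed. The 10 rose from means of 0.0322 to 2.43 CPM at 21 d.p.p. to 0.572 to 30.9 CPM in adults. In adults they were still at 0.152% to 3.68% of the wild-type adult mean. The count of 10 fell when any single library was left out. The count of higher calls over all genes tested fell too in each case. DESeq2 called 8 members higher and 0 lower. Of all 20152 genes tested there, 2644 were higher and 2156 lower.

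ENSMAUG00000017274 and ENSMAUG00000015493 had the largest fitted changes among those that passed. In the knockout ENSMAUG00000017274 went from 0.039 and 0.025 CPM to 0.485 and 0.660 CPM, for a fitted log2 difference of 3.96 ± 0.629 (SE, n = 2 and 2; edgeR adjusted p = 0.00291). The 21 d.p.p. levels were 1 count in each library, so the gene passed the filter through the adults and the size of its change is poorly known. Summed over libraries and rounded, it had 44 counts in adults and 2 at 21 d.p.p., a ratio of 19.1 with an exact 95% interval from 4.98 to 162.7 that covers counting error only. In wild-type adults it stood at 256 and 291 CPM. DESeq2 gave it an adjusted p of 0.0141, and the edgeR call was also lost, at adjusted p of 0.0117, 0.0333 and 0.0266, without replicate 1 or 2 of 21 d.p.p. or adult replicate 2. ENSMAUG00000015493 rose from 2.23 and 2.63 CPM to 32.7 and 29.0 CPM, for a log2 difference of 3.52 ± 0.177 (SE, n = 2 and 2; edgeR adjusted p = 5.69e-05), and this call held under every alternative run. Its levels were 3.21 and 2.03 CPM in wild-type testis of 21 d.p.p. and 785 and 894 CPM in wild-type adults, so that the knockout adults reached 3.68% of the wild-type adult mean. It was the only member above 10 CPM in a knockout adult.

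The 1 member that fell was ENSMAUG00000019342, named after its values were seen. It went from 0.470 and 0.404 CPM at 21 d.p.p. to 0.088 and 0.049 CPM in adults of the knockout, which is 3 and 2 counts, and its log2 fold change was -2.77 ± 0.604 (SE, n = 2 and 2; edgeR adjusted p = 0.00954). The ratio of adults to 21 d.p.p., from 5 and 28 summed counts, was 0.155, with an exact 95% counting interval from 0.0468 to 0.407. The call was lost in DESeq2, at adjusted p = 0.0461, and without each of the 4 libraries in turn, at adjusted p from 0.0209 to 0.0949.

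**Figure D3:**
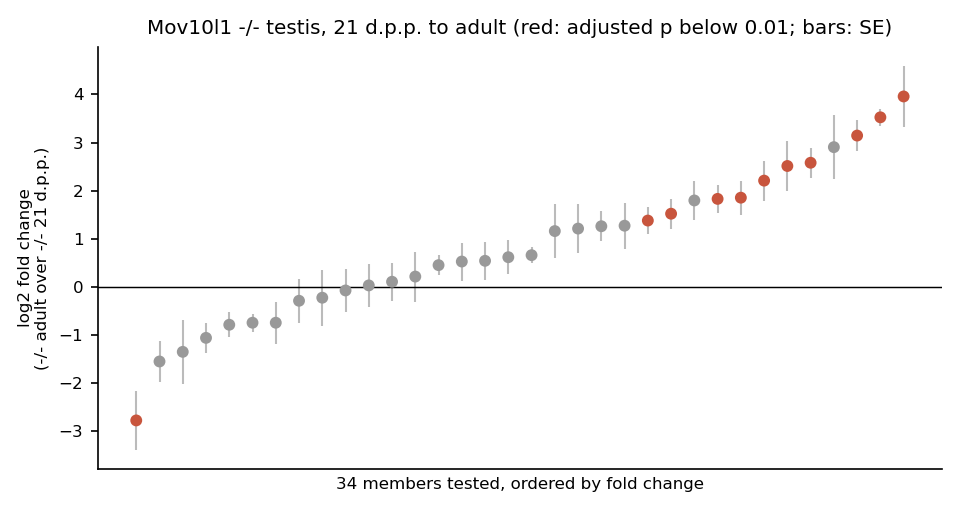
Log2 fold change of adult over 21 d.p.p. in Mov10l1-/- testis for the 34 members tested, ordered by size, with bars for the SE; red marks adjusted p below 0.01 in edgeR. The 10 red points on the right lie between 1.38 and 3.96 and the 1 red point on the left is at -2.77.

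Marker genes of earlier germ cells changed over the same interval in the knockout. Of the 16 meiotic genes 12 rose and 0 fell, with a median log2 fold change of 2.37, and of the 13 spermatogonial genes 10 rose and 0 fell, with a median of 1.68. Sycp1 went from 0.74 and 1.24 CPM to 16.3 and 15.5 CPM, a log2 fold change of 3.85 ± 0.188 (SE, n = 2 and 2; edgeR adjusted p = 5.24e-05). Of the 7 spermatid genes 3 rose, among them Brdt, a bromodomain protein of the male germline, which went from 0.35 and 0.63 CPM to 1.50 and 1.98 CPM. Their sum was 6.15 and 9.32 CPM at 21 d.p.p. and 15.0 and 16.1 CPM in adults. Among genes of somatic cells 3 of 6 Sertoli, 1 of 2 Leydig and 5 of 6 peritubular genes fell and none of them rose, while of the macrophage and vessel genes 2 rose and 3 fell. All listed genes were identified through the study's own calls, so these counts are not independent evidence of a direction.

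At 21 d.p.p. 39 members had enough counts to compare the genotypes. There 16 passed as lower and 1 as higher in the knockout, while of all 14834 genes tested 20.9% were lower and 17.1% higher. The wild-type libraries of 21 d.p.p. also took part in choosing the members, so these counts are a description and nothing is read from them. The 16 had means of 0.547 to 7.96 CPM in wild type and 0.0126 to 2.25 CPM in knockout. The count of 16 fell when any single library was left out. Over all genes tested the count of lower calls fell too, except without wild-type replicate 2, where it rose. DESeq2 called 9 members lower, and 2957 of all 21032 genes tested. In the wild type these 16 were at 0.137% to 0.789% of their adult mean. The largest difference among them was in ENSMAUG00000008482, chosen after its values were seen, at 7.63 and 1.07 CPM in wild type and 0.039 and 0.025 CPM in knockout. It stood at 1244 and 1684 CPM in wild-type adults and 0.059 and 0.049 CPM in knockout adults.

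The 1 member higher in the knockout at 21 d.p.p., ENSMAUG00000002667, was also named after its values were seen. It is the only member with a position in the sources used here, on the minus strand of scaffold KB708246.1 of MesAur1.0, from 1081938 to 1091200. At that age it stood at 0.153 and 0.508 CPM in wild type and at 3.93 and 4.94 CPM in knockout. The lower wild-type library held 1 count, and the low wild-type values took part in choosing the gene, so no test is given for it. The 9 d.p.p. levels were 3.18, 2.26 and 1.73 CPM in wild type and 1.14 and 1.47 CPM in knockout. The adult levels were 403 and 321 CPM in wild type and 7.53 and 8.05 CPM in knockout. The knockout values lay above the wild-type values at 21 d.p.p. and below them in adults and at 9 d.p.p., a change of sign between ages that was not tested.

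At 0 and 9 d.p.p. the summed level of the members was lower in each knockout library than in each wild-type library of its age. The sums were 67.8 and 73.9 CPM in knockout at 0 d.p.p. against 75.9 and 86.2 CPM in wild type. At 9 d.p.p. they were 38.1 and 37.5 CPM in knockout against 47.9, 42.7 and 43.6 CPM in wild type. Members of at least 1 CPM in any library numbered 17 in knockout and 23 in wild type at 0 d.p.p. The 9 d.p.p. libraries had 11 such members in knockout and 12 in wild type, and those of 21 d.p.p. had 9 in knockout and 23 in wild type. These values were not tested, as the wild-type libraries chose the members. At 0 d.p.p. the labels give both knockout libraries a shared code, of unstated meaning, that no wild-type library has. Both knockout libraries of 9 d.p.p. have the same animal code.

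At 13 d.p.p. the knockout libraries differed from each other. Replicate 1 gave 44.6 CPM and replicate 2 gave 94.5 CPM in sum, which is 2.12 times as much, against 54.8 and 90.3 CPM in wild type. In replicate 2 the levels followed those of wild-type adults. The median member was at 0.0801% of its wild-type adult mean, with quartiles of 0.0575% and 0.119%, and over the 200 members Spearman's rho with the adult levels was 0.77. In the other libraries outside adult wild type rho was between 0.18 and 0.41, and genes in one library share its depth, so rho is given without a test. Odf1, a protein of the sperm tail left out of the members, was at 1.25 CPM in that library and without a count in replicate 1. All 7 identified spermatid genes were lower in replicate 2 than in replicate 1, with sums of 14.2 and 24.4 CPM, and Ybx2 was at 1.83 and 8.27 CPM. The meiotic genes were also lower there, with a sum of 32.0 CPM in replicate 2 and 82.9 CPM in replicate 1. Mov10l1 was at 0.174 and 1.54 CPM. In sum, both lists stood far above the members' share of the adult level in both replicates. A share of that size could not be seen in the sums, so nothing is read from their direction. Single genes of the lists lay lower in replicate 2, such as Sox30 at 0.058 CPM and Hormad1 at 0.116 CPM. In wild-type adults Sox30 stood at 94.2 and 126 CPM and Hormad1 at 144 and 190 CPM. These genes were not tested. Of the 200 members 109 had their highest knockout level in replicate 2 of 13 d.p.p. Under 1 CPM in all 10 knockout libraries were 163 members, and in the 9 without that library 174 were. Why that library stood apart was not tested, and no comparison tested above used it.

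**Figure D4:**
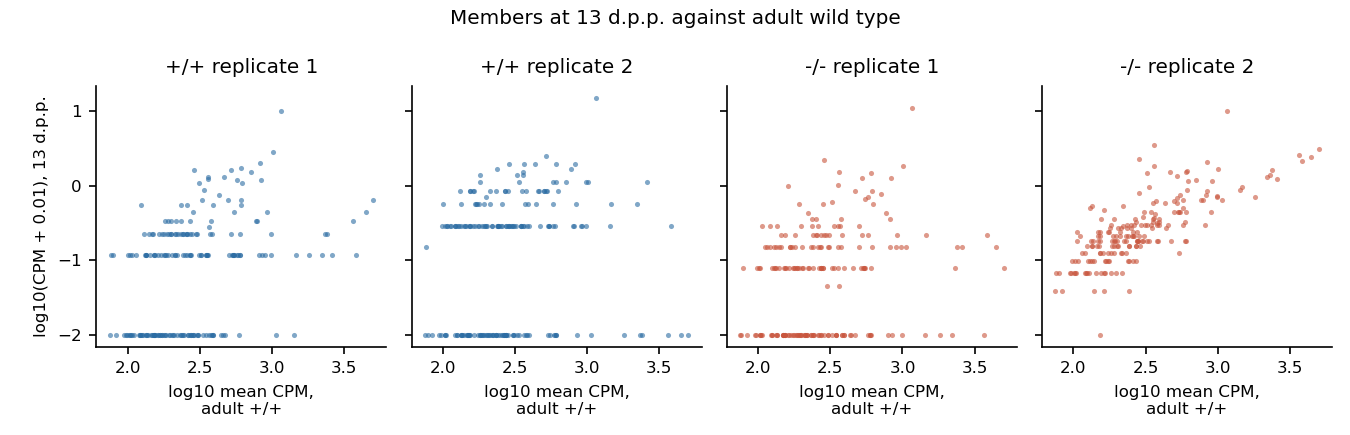
Level of each member at 13 d.p.p., as log10(CPM + 0.01), against its mean in adult wild type, as log10 CPM, for the 4 libraries of 13 d.p.p. In knockout replicate 2 the points rise with the adult level (Spearman's rho 0.77) and 1 member has no count, while in knockout replicate 1 75 members lie on the bottom line.

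Some members shared reads with other places in the genome. The authors split a read that fell on several genes or places, so fractional counts mark genes that share reads with another place or gene. In wild-type adults 63 of the 200 members (31.5%) had a count more than 0.001 away from a whole number in at least 1 library, against 24.1% of the 7640 genes with at least 10 CPM, and the levels of those members are uncertain to the extent that reads were split.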

How the data were processed

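The deposited values are estimated counts per gene, not normalized. The authors aligned reads to MesAur1.0 with STAR 2.7.3a and counted them over Ensembl exons with featureCounts 2.0.0, keeping multi-mapping and overlapping reads as fractions. All 21 columns were matched to samples by title. CPM was computed as a count over the column total. Counts were rounded for testing with edgeR 4.0.16 (TMM, expression filter, quasi-likelihood test, Benjamini-Hochberg adjustment, called below 0.01), each comparison fitted alone. Each was checked on simulated counts. Changes were planted there only in genes above 1 CPM, so the check does not cover members under that level. DESeq2 1.42.0 was an alternative. Replicates are separate libraries in the labels, which give both knockout libraries of 9 d.p.p. one animal code; no test used those 2, and p-values measure only the spread between libraries. Each SE is the absolute log2 fold change over the square root of the edgeR F statistic, and not a separately estimated error. The floor was 3 counts per library. Intervals and floors cover counting error only.

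The members, marker lists and tests were chosen with earlier results of these data known. Named members were to be those with a symbol (none of 200), the 2 with the highest L, and the 2 called members with the largest change between knockout ages, plus Mov10l1. The 5 genes left out were removed before ranking; only 1 of them would have been among the first 200. Symbols came from the study's supplementary tables, which paired 1044 identifiers of the table with one. Those tables list genes that the study had called as changed. Ranking used all 11 wild-type libraries.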

Additional observations from a re-analysis of the deposited data

How the results depend on the processing

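With 2 libraries a group and levels near 0 in most groups, counts of called members moved with single libraries. The 200 lower calls in adults could not show such movement, since adult wild-type levels chose the members, and nothing is read from them. Between knockout ages, members called higher ranged from 3 to 6 and lower from 0 to 1 when each library was left out; without a filter on low counts, where 176 members were tested in place of 34, 15 were called higher and 2 lower; lower calls were 0 in DESeq2 and 0 with the replicate block on crossed numbers. At 21 d.p.p., members called lower ranged from 4 to 12 when each library was left out, and were 9 in DESeq2, 25 in 1 fit over 12 paired-end libraries and 6 for members chosen with 0.1 CPM added; members called higher were 2 without a filter, 2 in that fit, 2 in the fit over 11 libraries without knockout replicate 2 of 13 d.p.p., and 0 for members chosen with 0.1 CPM added. The causes were not tested. Without the filter, 3300 of the 20152 genes tested were called higher and 2880 lower between knockout ages, a larger share than among the 176 members. At 21 d.p.p. the genes called lower were 2957 of 21032 in DESeq2 and 2690 of 16568 in the fit over 12 libraries. With crossed numbers they were 3932 of 14834. The replicate block gave 10 higher and 1 lower between knockout ages, 200 lower in adults, and 18 lower and 1 higher at 21 d.p.p. With 2 pairs a comparison, correlations of same-numbered libraries' deviations were 0.118 between knockout ages, 0.0804 in adults and -0.190 at 21 d.p.p. At 21 d.p.p. the labels give wild-type replicate 2 and knockout replicate 1 a shared code whose meaning is not stated, and at 13 d.p.p. same-numbered libraries share one; crossing the numbers, which puts the shared code of 21 d.p.p. in 1 block and was added after seeing the data like the fit over 11 libraries, gave 21 lower there. TMM scaling moved the mean summed level from 90167 to 132972 CPM in wild-type adults, from 93.8 to 120.4 CPM in knockout adults and from 39.4 to 53.3 CPM in knockouts of 21 d.p.p. Ranking by TMM-scaled CPM shared 197 members, adding 0.1 CPM shared 174, and leaving out wild-type adult replicate 1 or 2 shared 189 or 199.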
